A study of Mus musculus with 5 samples.

Results

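The comparison described here sets the kidney of the newborn mouse, taken on the day of birth (P0), against the kidney of the mouse embryo at E13.5, when branching of the ureteric bud and formation of the earliest nephrons are under way. It uses 2 of the 5 arrays of the series, 1 for each stage, and every gene whose probe was well above background on at least 1 of them: 17572 of the 24563 genes named on the array. Both RNA samples came from whole kidney of C57BL/6 mice with no treatment or transgene named in the labels, which give neither the number of mice behind a sample nor their sex. The series was made to follow development-related expression in transplanted kidney buds, and its other 3 arrays hold the kidney of 8-week-old mice and tissue recovered 2 and 4 weeks after a bud was transplanted. RNA was labelled with Cy3 and hybridised to one-colour Agilent arrays.

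Levels are given as log2 of the processed intensity relative to the 75th percentile of the array's gene spots, so that 0 stands for an intensity of 1619.7 at E13.5 and 1720.1 at P0. A level describes 1 probe and is compared only with the same probe on the other array. A difference is the P0 level minus the E13.5 level, also on the log2 scale. Each stage has 1 array, so no difference has a replicate check, a p-value or an error between animals. What the arrays do give is spot error: repeated spots of a probe had a median SD of 0.0597 at E13.5 (279 probes) and 0.0523 at P0 (294 probes), and the scanner's error model gave a median error of 0.20 for a difference. The lowest levels well above background were -5.90 and -6.02, and the highest not well above it were -5.23 and -5.50. Where a gene was well above background on 1 array only, its dim side was set to the higher of its own level and that lowest level, and the fold is then written as "at least". All counts take such a bound at its value. A bound smaller than 2-fold is therefore counted as within 2-fold, though the gene may differ by more.

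The E13.5 array lay on slide 1 and the P0 array on slide 2, so slide and stage cannot be told apart. The Y-linked Eif2s3y and Ddx3y were at -0.01 and -0.78 at E13.5 and not well above background at P0, while Xist was at -0.73 and -0.93. Sex and stage therefore cannot be told apart either. Of the genes chosen to check the tissue, Pax2, Pax8, Wt1, Lhx1, Cdh16, Emx1, Six2, Ret and Foxd1 were well above background on both arrays. Six2, which marks nephron progenitors, was at 4.68 and 3.45, and Cdh16, a cadherin of kidney tubules, at 2.79 and 5.95.

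The kidney grows by exchange between the ureteric bud, which branches into the collecting system, and the cap of mesenchyme around its tips, whose cells either renew themselves or turn into the epithelium of a nephron. Around these lies a stroma that gives rise to interstitial cells, pericytes and smooth muscle. Each nephron then divides into a glomerulus, where podocytes and capillaries filter the blood, a proximal tubule that takes back most of the filtrate, and more distal segments that set the final salt and water content. In the mouse nephrons still form at birth, so the newborn kidney holds mature and forming nephrons side by side.

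Genes of tubular transport and metabolism, of smooth muscle, of the renin and prostanoid systems, of urothelium, and of antigen presentation and complement lay higher in the newborn kidney. Embryonic globins, skeletal muscle genes, some mesenchymal transcription factors and imprinted growth genes lay lower, while most genes of the cell cycle were lower by a factor near 2. At least 4-fold higher at P0 were 1096 of 17572 genes (6.24%), and at least 4-fold lower 322 (1.83%), 8.07% in all. At 2-fold the shares were close to each other, 2442 genes higher (13.9%) and 2088 lower (11.9%), and the median difference over all genes was -0.12, with quartiles of -0.61 and 0.44. The imbalance grew with the size of the difference: at least 16-fold were 287 genes higher and 31 lower, and at least 64-fold 92 higher and 5 lower. Of the 1096 and 322 genes, 367 and 112 are bounds, since 1 side was not well above background. Several probes stood for 292 of these genes, and in 213 of them every probe was at least 2-fold apart in the same direction, while in 3 another probe lay more than 2-fold the other way. Where the probes of a gene named here differ by more than 1 on the log2 scale, the other value is given with it. In bulk tissue, fewer cells of a type and less RNA per cell cannot be told apart.

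**Figure D1:**
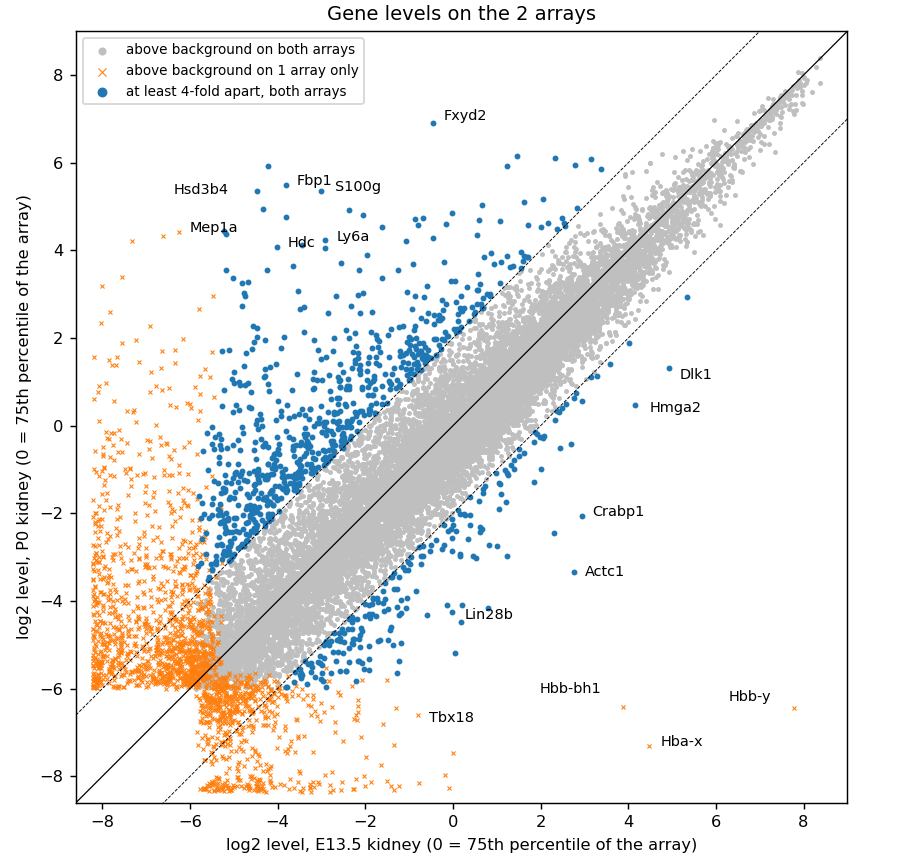
Level of each gene in the E13.5 kidney (x axis) and in the P0 kidney (y axis), both in log2 units relative to the 75th percentile of the array, with 1 point per gene and 1 array per stage. The solid line marks equal levels and the dashed lines a 4-fold difference; blue points above the lines outnumber those below, and Hbb-y, Hba-x and Hbb-bh1 lie alone at the lower right.

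Scaling of the arrays moved the bulk of genes by a small amount that matters for mild differences. Spike-in controls, RNAs added in known amount during labelling, had a median difference of -0.26 over the 8 control probes well above background on both arrays (lowest -0.55, highest -0.17). Centring on them, an alternative chosen after seeing the data, would raise every difference by 0.26, and centring on a loess curve raised the median gene by 0.20. The counts were then 1337 higher and 223 lower, and 1282 and 245. Lists with a median between -0.26 and 0 thus have no settled direction and are described as near the bulk of genes. The same holds for single genes within 2-fold, since 19 of the 74 such genes that were followed changed sign under 1 or more of the alternatives other than the failed normexp correction described next.

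**Figure D2:**
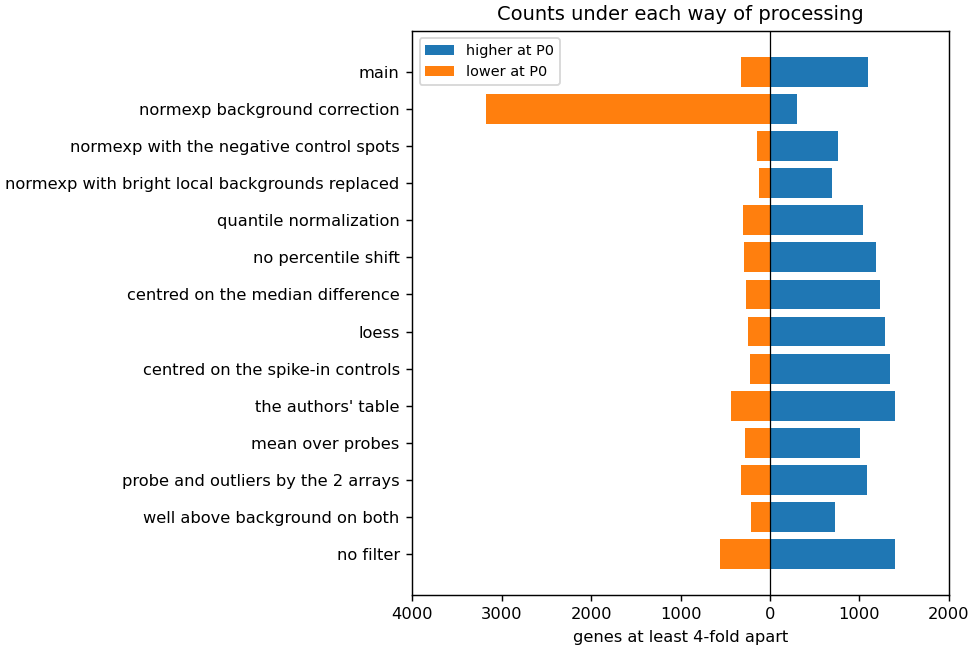
Number of genes at least 4-fold higher (blue, to the right) and lower (orange, to the left) at P0 under each way of processing the same 2 arrays; the bars start at 0. The normexp correction whose fit failed on the E13.5 array (304 higher and 3180 lower) stands alone, and the other settings give between 696 and 1400 genes higher and between 128 and 557 lower.

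The enzymes of proximal tubule metabolism made up the widest gap of any list. Of 23 genes compared, 21 were at least 2-fold higher at P0, 2 were within 2-fold and 0 were lower, with a median of 5.20 against -0.12 for all genes. Fbp1, the bisphosphatase that drives gluconeogenesis in the tubule, was at -3.81 at E13.5 and 5.49 at P0, a 629.6-fold difference. Pck1, which commits carbon to gluconeogenesis, was not well above background at E13.5 and at 2.27 at P0, at least 287-fold higher. G6pc, which releases free glucose at the end of the same route, went from -4.35 to -0.01 (20.2-fold). Several steps of gluconeogenesis were thus higher together.

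Enzymes of amino acid breakdown stood in the same group. Fah, the last step of tyrosine breakdown, was at -4.21 and 0.95 (35.7-fold higher at P0). Acsm1 and Acsm2, which couple medium-chain acids to coenzyme A and are close relatives, were seen well above background at P0 only, at 1.97 and 1.97. The probes of Acsm1 gave differences from at least 5.07 to at least 7.87. Gatm, which starts creatine synthesis, had a smaller gap, from -2.82 to 1.17. Ddc, the decarboxylase that makes dopamine in the tubule, stayed within 2-fold at -0.14 and 0.56. Bhmt, which remethylates homocysteine, was well above background at E13.5 only, at -5.26. Its difference of -0.76 is a bound, counted above as within 2-fold.

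**Figure D3:**
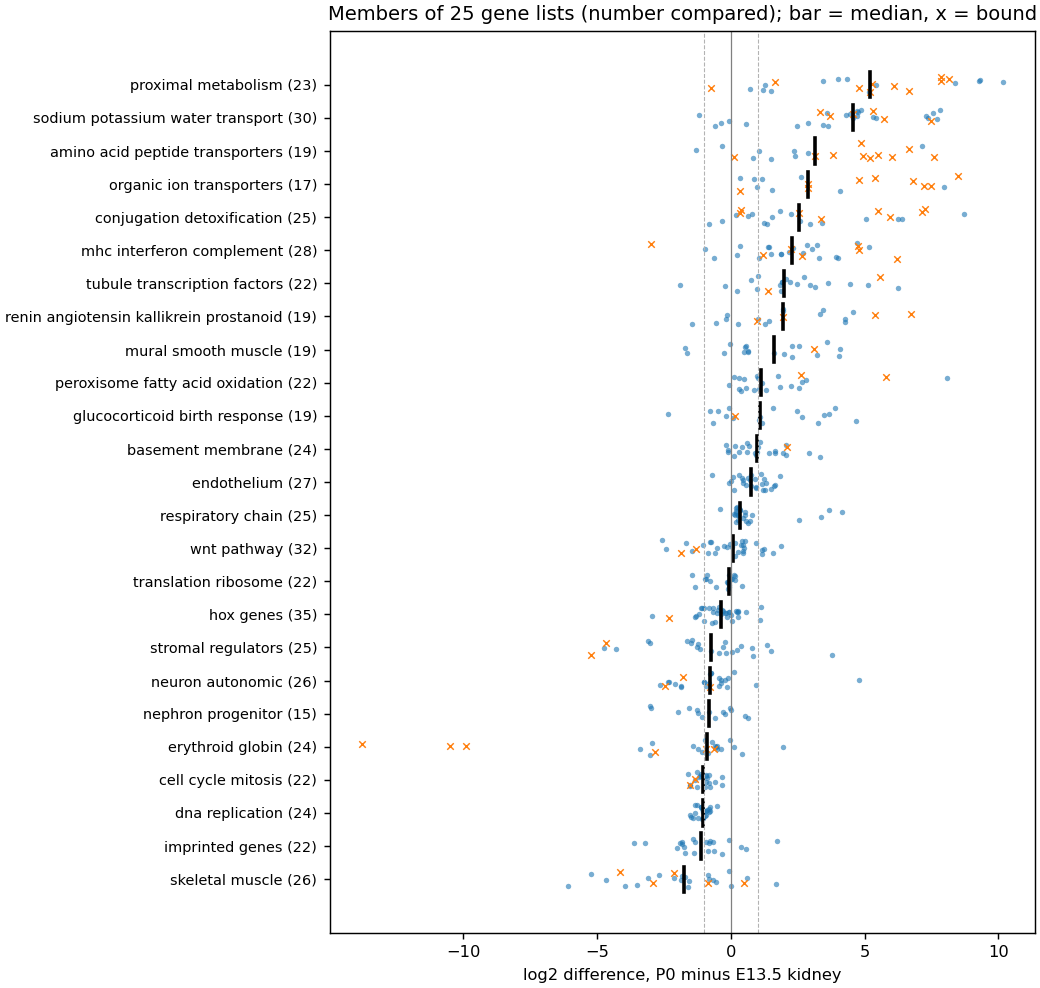
Difference between the P0 and the E13.5 kidney (log2, x axis) for the members of 25 of the 62 gene lists, with the number of genes compared in brackets. Blue points are genes measured on both arrays, orange crosses are bounds, black bars are list medians and dashed lines mark a 2-fold difference; the medians run from 5.20 for proximal metabolism to -1.76 for skeletal muscle.

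Fatty acid oxidation, on which the adult proximal tubule runs, was higher in part of its genes. Of 22 compared, 12 were at least 2-fold higher, 10 within 2-fold and 0 lower (median 1.11). Slc27a2, which imports and activates very long chain fatty acids, was at -4.81 and 3.26, 269.6-fold higher, and reached 8.12 at 8 weeks. Acadm, which opens the breakdown of medium-chain fatty acids in mitochondria, was at 1.63 and 3.88 (4.75-fold), and Cpt1a, the gate to mitochondrial entry, at -0.54 and 1.28 (3.54-fold). The later steps encoded by Hadha and Hadhb differed by 0.29 and 0.37, little more than the spot error of 0.20.

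The respiratory chain itself stayed mostly within 2-fold. Of 25 genes compared, 21 were within 2-fold, and the 19 subunits of the list other than Cox7a1 differed by between 0.11 (Ndufs1) and 0.71 (Uqcrfs1). The 4 genes that were at least 2-fold higher comprise 1 subunit and 3 regulators. Cox7a1, a cytochrome oxidase subunit typical of muscle and other oxidative tissue, was at -1.93 and 1.44 (10.3-fold). Its paralog Cox7a2 was at 4.64 and 4.90. The coactivator Ppargc1a, which drives mitochondrial biogenesis, went from -1.63 to 0.90 (5.77-fold). The orphan receptors Esrrb and Esrrg, partners of this coactivator, went from -4.03 to 0.13 (17.9-fold) and from -3.80 to -0.12 (12.8-fold). Tfam, which packs and transcribes mitochondrial DNA, differed by -0.42.

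Many of the organic ion transporters of the proximal tubule were not well above background in the embryo. Of 17 organic ion transporters 13 were higher, 4 within 2-fold and 0 lower (median 2.90), and of 20 on the array 8 were well above background at E13.5 against 17 at P0. Slc22a6, the main exchanger that takes up organic anions from blood, was at -4.67 and 3.29 (249-fold). Slc22a2, which carries organic cations, was seen at P0 only, at 0.90 (at least 111-fold). The efflux transporters differed among themselves. Slc47a1, which passes organic cations into the urine, was at -0.49 at P0 (at least 42.3-fold higher), and Abcc2, a pump for conjugates, at -3.00 (at least 7.45-fold). Abcg2, which exports urate, was already at 2.29 at E13.5 and at 3.47 at P0 (2.26-fold), and Abcc4 was within 2-fold.

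Amino acid and peptide carriers gave 15 higher, 3 within 2-fold and 1 lower of 19 (median 3.15). Slc3a1, the heavy chain of the cystine carrier, and Slc7a9, its light chain, were at 1.71 and 1.11 at P0, at least 195-fold and at least 101-fold higher. Cltrn, collectrin, which brings neutral amino acid carriers to the brush border, was at -2.92 and 4.24 (143-fold). The general carriers behaved otherwise: Slc3a2, the heavy chain used by most cells, was at 2.18 and 3.25 (2.10-fold), and Slc7a5, a leucine carrier of growing cells, differed by -0.32. Slc6a20a, a proline carrier, was lower at P0, from -0.59 to -1.91 (2.49-fold).

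Among 16 carriers of glucose and related molecules 11 were higher and 5 within 2-fold (median 2.97). Slc5a2, which takes up most filtered glucose, was at 1.13 at P0 (at least 119.9-fold), and Slc2a2, its partner on the blood side, at 0.96 (at least 116-fold). Slc5a12, a lactate carrier of the proximal tubule, was at 0.81 (at least 104-fold). Slc2a1 and Slc2a3, which supply cells in general, differed by 0.65 and 0.69. Where both arrays had to be well above background, which leaves out genes seen at P0 only, the medians were 1.35 for organic ion transporters and 1.81 for glucose carriers, and that of the amino acid and peptide carriers was also smaller.

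Genes of phosphate, calcium and vitamin D handling were higher in 17 of 24, within 2-fold in 6 and lower in 1 (median 2.64, or 1.21 over genes well above background on both arrays). Kl, the co-receptor for the phosphate hormone FGF23, was not well above background at E13.5 and at 0.77 at P0 (at least 102-fold). Vdr, the vitamin D receptor, was at -5.33 and -0.19 (35.3-fold). Both the enzyme that activates vitamin D, Cyp27b1, and the one that degrades it, Cyp24a1, were seen at P0 only, at -1.51 and -1.14. The endocytic receptors of the brush border followed the same pattern, Lrp2 (megalin) from -2.84 to 2.57 (42.7-fold), Cubn (cubilin) from -4.61 to 0.77 (41.8-fold) and its anchor Amn from -4.56 to 2.27 (114-fold). Other probes gave 2.54 for Lrp2 and 1.76 for Cubn, in place of 5.42 and 5.39. Slc17a1, which carries phosphate and urate, was at 3.19 at P0 (at least 543-fold), and S100g, which ferries calcium through distal cells, at -3.01 and 5.35 (331-fold). Slc20a1, the phosphate carrier found in most cells, was the member that was lower, from 2.82 to 1.73 (2.14-fold).

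Detoxifying enzymes included members far apart and members that were level. In the conjugation list 18 of 25 were higher and 7 within 2-fold (median 2.53), and in the cytochrome P450 list 10 of 18 were higher and 8 within 2-fold (median 1.76, or 0.38 over genes well above background on both arrays). Ggt1, which cleaves glutathione at the brush border, was at -4.30 and 1.96 (76.4-fold), and Nat8, which acetylates cysteine conjugates, at -4.73 and 1.67 (84.3-fold). Sult1d1, a sulfotransferase, was seen at P0 only, at 1.38 (at least 155-fold), with another probe at a difference of 4.46. By symbol, all 10 genes compared whose names start with Ugt, a root shared by the enzymes that add glucuronic acid, were at least 2-fold higher (median 4.39). Genes dim on both arrays, such as Ugt1a6a at -6.38 and -6.45, are not among the 10. Other members of these lists were level: Gstp1 was at 2.47 and 2.12, and Cyp26b1, which breaks down retinoic acid, at 1.20 and 1.39. Gsta2 and Cyp2d26, with differences of 8.72 and 9.67, and Hsd3b4 belong to families of near-identical copies, so the gene behind the signal is uncertain. The probes of Hsd3b4 gave differences from 3.93 to 9.84.

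Regulators of tubule identity were higher as a group, 17 of 22 at P0, with 4 within 2-fold and 1 lower (median 1.99). Hnf4a, a nuclear receptor that acts as a master regulator of the proximal tubule, was at -2.55 at E13.5 and 3.71 at P0, a 76.7-fold difference. Nr1h4, the bile acid receptor, was seen at P0 only, at -0.33 (at least 47.2-fold). Further along the nephron, Foxi1, the factor of acid-secreting intercalated cells, was at -3.33 and -0.19 (8.81-fold), and Elf5, found in principal cells, at -2.60 and 1.02 (12.3-fold). Nr1i3, a xenobiotic receptor best known from liver, was the member that was lower, from -1.94 to -3.83 (3.71-fold).

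Since Hnf4a was among the regulators that were higher, the promoters in the RefSeq table (build GRCm38.p6, 250 bases before to 50 after each start) were searched on both strands for its motif. The HNF4 motif, CAAAGTCCA without mismatch, was in 0.904% of the promoters of genes at least 4-fold higher (9 of 996) and in 2.40% of those at least 16-fold higher (6 of 250), a subset of the former. It was in 0.442% of the promoters of all genes compared and 0.475% of all promoters in the table. Among genes at least 4-fold lower it was found in 0 of 271 promoters, which allows a share of up to 1.11% if promoters are taken as independent. Genes with several starts count more than once: the 996 and 271 promoters belong to 801 and 221 genes. A match is a run of letters and not a measured binding site, and the counts behind these shares are small. The promoter of Slc3a1, the cystine carrier gene described above, is shown as a named gene with a match, which is in capitals and begins 39 bases before the start. It runs 5′ to 3′ along the gene's strand and ends 1 base before the start of transcription.
Slc3a1 (chr17:85028097-85028346, + strand): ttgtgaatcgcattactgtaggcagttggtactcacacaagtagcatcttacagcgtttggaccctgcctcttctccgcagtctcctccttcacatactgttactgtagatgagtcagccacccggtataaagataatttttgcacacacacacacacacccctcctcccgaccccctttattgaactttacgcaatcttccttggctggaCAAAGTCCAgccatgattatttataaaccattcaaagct
Of the 45 named genes that were higher, 34 had a promoter in the table and 2 of these a HNF4 match, against 0 of 33 among the named genes that were lower.

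Motifs of factors tied to growth and muscle were searched in the same way. The E2F motif, TTTCCCGC or TTTGGCGC, was in 3.56% of the promoters of genes 2-fold to 4-fold lower (55 of 1545) and in 2.45% of those compared. It was less frequent at both ends, in 1.11% of the promoters of genes at least 4-fold lower (3 of 271) and 0.904% of those at least 4-fold higher. The MEF2 motif, rich in A and T and searched with at most 1 mismatch, was in 1.67% of the promoters of genes compared, in 1.85% of those at least 4-fold lower (5 of 271) and in 2.61% of those at least 4-fold higher (26 of 996), so its share was not particular to the lower genes.

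**Figure D4:**
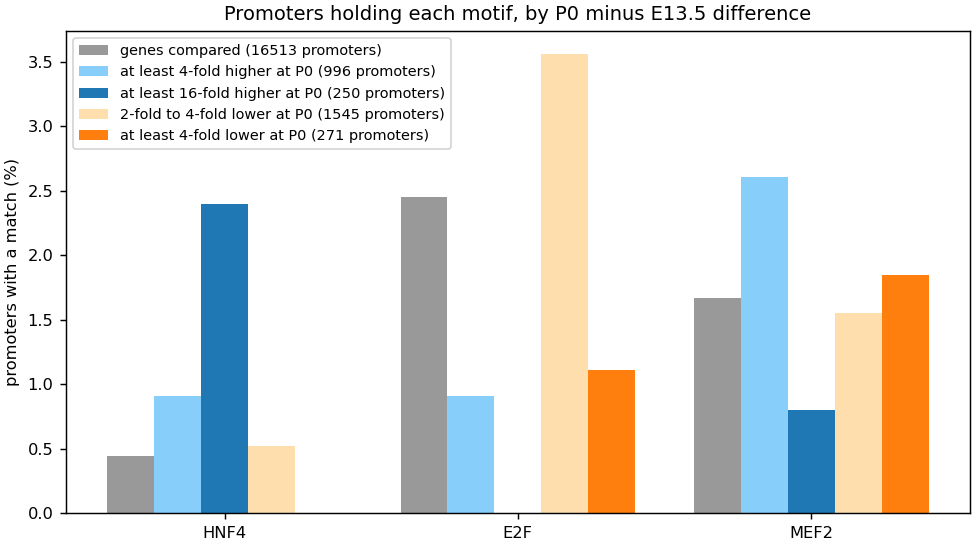
Share of promoters (%, y axis) that hold each of 3 motifs on either strand, for promoters of all genes compared and of genes in 4 classes by the difference between P0 and E13.5, with the number of promoters in the legend. The HNF4 bars reach 0.904% and 2.40% for genes at least 4-fold and at least 16-fold higher, against 0.442% for all genes compared, and the E2F bar is highest, at 3.56%, for genes 2-fold to 4-fold lower.

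Salt and water transport along the nephron, a list that holds genes of the proximal tubule such as Aqp1 and Slc9a3 beside those of distal segments, gave 25 of 30 genes higher, 4 within 2-fold and 1 lower (median 4.56), and the summed level of the list went from 29.4 to 339 in units of the 75th percentile. Parts of the sodium pump were higher: its beta subunit Atp1b1 was at -0.02 and 4.85 (29.2-fold), and the kidney modulator Fxyd2 at -0.45 and 6.90 (164-fold). Bsnd, a subunit of chloride channels of the loop, was at -4.96 and 0.47 (42.9-fold). Scnn1a and Scnn1b, subunits of the sodium channel under aldosterone control, were higher by a factor of 11.0 and 12.3. Of 9 aquaporin genes 8 were at least 2-fold higher (median 4.57), and Aqp7 was lower, from -2.77 to -3.97 (2.29-fold). The kinases Wnk1, Wnk4 and Stk39, which regulate these carriers, stayed within 2-fold.

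Acid-base genes were higher in 14 of 20, within 2-fold in 5 and lower in 1 (median 2.83). Atp6v0a4, the proton pump subunit used by intercalated cells, was at -4.59 and 1.76 (81.5-fold), and Rhbg, an ammonia channel, at -5.28 and 0.44 (52.7-fold). The general pump subunit Atp6v0a1 differed by 0.57. Slc4a1, an anion exchanger of red cells as well as of intercalated cells, was the member that was lower, from 0.61 to -2.43 (8.24-fold). Red cell genes were lower too, as given further on, and their part in this value was not tested.

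Among tight junction genes 12 of 22 were higher, 10 within 2-fold and 0 lower (median 1.18). Cldn10 and Cldn2, which form pores between cells of the loop and of the proximal tubule, were at -5.12 and 1.74 (115-fold) and, at P0 only, at 1.38 (at least 155-fold, with another Cldn2 probe at 3.98). The scaffold gene Tjp1 differed by 0.04. Of 27 cadherins and protocadherins 16 were within 2-fold, 4 higher and 7 lower (median -0.44). Cdh1 and Cdh16, of epithelia, were 4.48-fold and 8.91-fold higher, while Cdh2, of mesenchyme and early nephrons, was at 3.22 and 1.22 (3.99-fold lower). Of the protocadherins, Pcdh8 and Pcdh19 were lower, by 5.85-fold and 5.27-fold, and Pcdh15 was at least 5.86-fold higher, though its probes gave differences from -0.66 to 2.55.

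Urothelium, the lining of the renal pelvis, was a further group that was dim in the embryo. In the list of ureteric bud and collecting system genes 13 of 26 were higher, 11 within 2-fold and 2 lower (median 0.89), and the 5 uroplakins, which form the plaques of the urothelial surface, were all among those higher. Upk3a was not well above background at E13.5, at 1.73 at P0 and at -1.95 at 8 weeks, so that P0 was the highest of the 3 kidneys. Upk1a was at -3.00 and 1.52 (23.0-fold), and Upk2 at -0.56 at P0 (at least 40.5-fold). Keratins of simple epithelium, Krt8, Krt18 and Krt19, were 3.28-fold, 2.75-fold and 12.4-fold higher.

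Several genes of the ureteric bud tip stayed within 2-fold. Ret, the receptor for the branching signal, was at -1.30 and -2.08, its co-receptor Gfra1 at -1.30 and -1.43, and Wnt11, a target of Ret, at 0.30 and 0.75. The members that were lower were Sox8 and Sox9, transcription factors of the tip, from -3.58 to -5.46 (3.69-fold) and from -0.57 to -1.90 (2.51-fold). Wnt7b, which the collecting duct needs to extend into the medulla, was higher, from -3.55 to -1.66 (3.69-fold).

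Podocyte genes were higher in part. Of 21 podocyte genes 8 were higher, 11 within 2-fold and 2 lower (median 0.63). Ptpro, a phosphatase of the podocyte surface, was at -4.53 and -0.55 (15.8-fold), and Podxl, which keeps the filtration slits open by its charge, at -2.97 and -0.76 (4.63-fold). Clic5, of podocyte foot processes, was at -4.39 and 0.15 (23.2-fold). The transcription factors Wt1 and Tcf21 differed by -0.30 and 0.37, and Foxc2 was lower, from 2.85 to 1.63.

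Basement membrane genes gave 11 of 24 higher, 13 within 2-fold and 0 lower (median 0.96). Col4a3 and Col4a4, chains of the mature glomerular basement membrane, were at -3.79 at P0 with no level well above background at E13.5 (at least 4.29-fold) and at -4.46 and -1.12 (10.1-fold, but a difference of 0.31 by another Col4a4 probe). Col4a1 and Col4a2, found in basement membranes in general, were at 1.55 and 3.60 (4.15-fold) and at 1.45 and 3.09 (3.12-fold). The fibrillar collagens Col1a1, Col1a2 and Col3a1 differed by -0.10, 0.37 and 0.73, within 2-fold.

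Endothelial genes were higher by modest amounts, 10 of 27, with 17 within 2-fold and 0 lower (median 0.75). Eng, a co-receptor of endothelial cells, was at -1.30 and 0.52 (3.52-fold), and Ehd3, which marks glomerular capillaries, at -0.32 and 1.33 (3.15-fold). The pan-endothelial Pecam1 and Cdh5 differed by 0.73 and 0.63. Kdr, the main receptor for VEGF, was level at 2.34 and 2.34, from a probe other than the one marked as an outlier on the E13.5 array.

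Smooth muscle genes were apart from these, with 10 of 19 higher, 7 within 2-fold and 2 lower (median 1.59). Acta2, smooth muscle actin, was at 0.59 and 4.68 (17.1-fold), and Cnn1, calponin, at -2.99 and 1.05 (16.5-fold). Myh11, the myosin of mature smooth muscle, was seen at P0 only, at -2.79 (at least 8.59-fold). Against these, Myocd, the coactivator that drives such genes, was lower at -2.48 and -4.12 (3.11-fold), as was Des, desmin, which skeletal muscle also makes, at -0.74 and -2.45 (3.27-fold). The pericyte receptor Pdgfrb differed by 0.49.

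The renin system, kallikreins and prostanoid genes were higher in 12 of 19, within 2-fold in 6 and lower in 1 (median 1.95). Agtr1a, the receptor for angiotensin II, was at -3.20 and 1.06 (19.1-fold), and Ace, which makes angiotensin II, at -4.86 and -1.43 (10.8-fold, but a difference of -0.40 with the failed normexp correction). Agtr2, the receptor typical of the fetus, was level at 0.72 and 0.58. Klk1b5, a kallikrein of the distal tubule, was at 0.86 at P0 (at least 108-fold), though its family holds close copies that the probe may share. Ptgds, a prostaglandin synthase, was at -4.50 and 0.05 (23.4-fold). Ptger2, a prostaglandin E2 receptor, was lower, from -3.75 to -5.22 (2.77-fold).

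Genes that respond to hormones and stress at birth did not move as a block. In the list of glucocorticoid and birth response genes 11 of 19 were higher, 7 within 2-fold and 1 lower (median 1.09). The metallothioneins Mt1 and Mt2, which bind zinc and copper, were at 1.47 and 6.16 (25.8-fold, with another Mt1 probe at a difference of 1.94) and at 1.63 and 5.11 (11.2-fold). Hsd11b1, which regenerates active glucocorticoid in the cell, was at -4.97 and -1.08 (14.8-fold), Klf9 at -2.23 and 1.44 (12.7-fold) and Sgk1, a kinase induced by aldosterone, at 0.06 and 3.30 (9.45-fold). Other widely used glucocorticoid targets were not higher: Tsc22d3 differed by 0.08, Fkbp5 by -0.79 and Zbtb16 by -0.48. Angptl4, a lipase inhibitor, was lower, from 2.06 to -0.27 (5.04-fold).

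Immediate early genes, which respond within minutes to handling of tissue as well as to growth factors, were higher in 10 of 18 and within 2-fold in 8 (median 1.13). Ier3 was at -4.02 and -0.26 (13.6-fold), Nr4a1 at -0.12 and 2.04 (4.47-fold) and Fos at -4.92 and -3.37 (2.94-fold), while Jun differed by -0.31. Genes of hypoxia and glycolysis were within 2-fold in 11 of 20, higher in 8 and lower in 1 (median 0.57). Ndrg1 stood out in that list, from -0.68 to 4.74 (42.8-fold). The glycolytic enzymes Gapdh, Eno1 and Ldha differed by -0.05, 0.30 and 0.27, and Hk2, a hexokinase of growing tissue, was lower by 2.40-fold. The clock list lay near level, with 11 of 15 genes within 2-fold, and the core factors Arntl and Clock differed by -0.32 and -0.19.

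Genes of antigen presentation, interferon response and complement were higher in 23 of 28, within 2-fold in 4 and lower in 1 (median 2.29). Cfb, factor B of the alternative complement pathway, was not well above background at E13.5 and at 0.32 at P0 (at least 74.1-fold), and C2, its counterpart in the classical pathway, was at -5.43 and -0.26 (36.0-fold). H2-K1 and H2-D1, class I molecules with close copies, were at -0.12 and 2.04 (4.50-fold) and at -1.96 and 1.25 (9.26-fold), and Tap2, which brings them peptides, at -3.74 and 0.19 (15.3-fold). Of interferon targets, Isg15 was at -2.21 and 1.81 (16.2-fold), and Ifit3 and Oasl2 were seen at P0 only, at -1.13 and -1.12. Ly6a and Ly6c1, surface proteins of near-identical families that endothelium also carries, were at -2.91 and 4.06 (125-fold) and at -2.05 and 4.80 (115-fold, with probes at differences from 4.10 to 6.84). The member that was lower, Masp1, a protease of the lectin pathway, was at -2.83 at E13.5 and not well above background at P0, with probes at -3.00 and -1.57.

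Leukocyte markers gave a mixed picture. Of 18 macrophage genes 6 were higher, 12 within 2-fold and 0 lower (median 0.73), 18 of 20 on the array were well above background at each stage, and Csf1r, the receptor that maintains macrophages, was at 1.40 and 2.14 with a difference of 0.74. In the list of neutrophil, mast cell and lymphoid genes 10 of 20 were higher, 9 within 2-fold and 1 lower, with a median of 1.21 that turned to -0.20 under the failed normexp correction and was 0.08 over genes well above background on both arrays, and 14 of 24 on the array were well above background at E13.5 against 20 at P0. S100a8 and S100a9, of mature neutrophils, were at -4.89 and 0.35 (37.6-fold) and at -3.40 and 2.14 (46.4-fold). Mpo, of their precursors, was at -2.09 and -4.61 (5.73-fold lower, with another probe at -1.003). Of the other neutrophil genes compared, Ngp, Camp, Ltf and Retnlg were higher by between 1.56 and 3.24. Elane and Prtn3 were level, with differences of 0.14 and -0.03, and Csf3r differed by -0.87. The B and T cell genes Cd79a and Cd3e differed by 0.35 and 0.03. Hdc, which makes histamine and is also a mast cell gene, is in this list and had the widest gap in it, from -4.01 to 4.07. The mast cell protease Cpa3 was at -4.73 and -2.63. Cma1, Mcpt4, Tpsb2 and Kit, also in the list, differed by 1.77, 0.85, -0.61 and -0.34. The part of mast cells in the Hdc value was not tested.

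Genes used as signs of kidney injury were higher in 9 of 16 and within 2-fold in 7 (median 1.88, or 0.64 with no filter on dim probes). Lcn2, secreted by stressed tubules and by neutrophils, was at -3.98 and 0.56 (23.3-fold), and Spp1, osteopontin, at -2.37 and 0.83 (9.20-fold). Havcr1, the marker most specific to the injured proximal tubule, was at -5.46 at P0, close to the lowest level well above background. Sprr1a and Sprr2f, small proteins of stressed and stratified epithelium, were at -5.05 and 1.07 (69.4-fold) and at -4.68 and 0.97 (50.4-fold).

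On the side of the embryo, the 3 largest differences were embryonic globins. Hbb-y, the embryonic beta-like chain, was at 7.78 at E13.5 and not well above background at P0, at least 14193-fold lower. Hba-x, the embryonic alpha-like chain, and Hbb-bh1, another beta-like chain, were at 4.49 and 3.87 at E13.5, at least 1449-fold and at least 948-fold lower. Primitive red cells, which carry these chains, circulate in the mid-gestation embryo and are replaced by cells with adult chains. The adult chains stayed high on both arrays: Hba-a1 was at 7.34 and 6.25 and Hbb-bt at 6.84 and 5.98, though adult globin genes are near-identical copies that the probes may not separate. Genes of red cell precursors were lower too, with the membrane genes Rhd at -1.48 and -4.89 (10.6-fold) and Slc4a1 as given above, Ahsp, the alpha-globin chaperone, at 1.22 and -1.74 (7.78-fold), and Gata1 at -3.20 at E13.5 only. In all 10 of 24 erythroid genes were lower, 13 within 2-fold and 1 higher (median -0.89), the summed level of the list was 961 and 443, and the share of blood in either sample was not tested.

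Genes of cell division were lower by small amounts. Of 22 mitosis genes 11 were at least 2-fold lower, 11 within 2-fold and 0 higher (median -1.04), and of 24 replication genes 15 were lower, 9 within 2-fold and 0 higher (median -1.05). Since so many members sit near the 2-fold line, centring on the spike-in controls left 8 and 5 of them lower, with medians of -0.78 and -0.80. Mki67, a marker of cycling cells, was at 3.42 and 2.59, and Plk1, a mitotic kinase, at 3.99 and 2.38 (3.06-fold). Mcm2 and Pcna, at the replication fork, differed by -1.10 and -0.77. In a list of cycle inhibitors, arrest genes and D cyclins 5 of 15 were higher, 9 within 2-fold and 1 lower (median 0.64). The inhibitors Cdkn1a (p21), Cdkn2c and Cdkn2b were among those higher, Cdkn1a from -1.45 to 1.02 (5.55-fold) and the other two by 4.18-fold (a difference of -0.89 with the failed normexp correction) and at least 2.96-fold. Cdkn1b and Cdkn1c (p57) stayed within 2-fold, and the member that was lower was the cyclin Ccnd2 (2.71-fold).

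In the translation list 20 of 22 genes were within 2-fold, 2 lower and 0 higher (median -0.08). Its 12 ribosomal proteins differed by between -0.13 (Rps6) and 0.15 (Rps3), near the bulk of genes. The lower members were both of ribosome assembly, Nop56 from 4.55 to 3.11 (2.72-fold) and Polr1a, the large subunit of RNA polymerase I, from 1.67 to 0.32 (2.56-fold). The other nucleolar genes of the list, Ncl, Npm1, Fbl, Nop58 and Polr1b, stayed within 2-fold, with differences of -0.77, -0.56, -0.94, -0.89 and -0.98.

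Families were also formed from genes that share a symbol root, 265 of them with 8 or more genes compared. The 12 with the lowest medians were of several kinds. Igf was the lowest at -1.39 (6 of 9 genes at least 2-fold lower). This root pools insulin-like growth factor genes with the RNA-binding Igf2bp1, Igf2bp2 and Igf2bp3, which were among the 6. Igf1r and Igf2r differed by 0.06 and -0.33. Next came Nup, of the nuclear pore, at -1.02 (10 of 20), Myh, of myosin heavy chains, at -1.02 (5 of 9, with 3 higher), and Mcm, named for replication helicases, at -0.98 (5 of 10). Nop, Nol, Rrp and Utp, roots found among ribosome assembly factors, were at -0.94, -0.86, -0.78 and -0.77, and most of their members, 5 of 8, 6 of 10, 7 of 8 and 7 of 11, were within 2-fold. Prpf and Srsf, of splicing, were at -0.92 and -0.82, with 5 of 13 and 3 of 11 genes lower. Hoxd was at -0.92 (5 of 10 lower, 2 higher) and Haus, of the mitotic spindle, at -0.87 (3 of 8 lower). With spike-in centring these medians would all be 0.26 higher and still below 0.

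Among regulators of chromatin and of developmental timing single genes were further apart. In the chromatin list 11 of 20 were lower and 9 within 2-fold (median -1.01), and with spike-in centring 7 were lower (median -0.76). Hells, a remodeller needed for DNA methylation, was at -1.02 and -3.30 (4.86-fold), and Ezh2, the Polycomb methyltransferase, at 2.53 and 1.03 (2.83-fold). Among RNA-binding genes and targets of the let-7 microRNAs, 10 of 21 were lower, 10 within 2-fold and 1 higher (median -0.76). Lin28b, which blocks let-7 maturation, was at -0.02 and -4.25, with probes at differences from -4.23 to -1.26, while its paralog Lin28a was level at -2.16 and -2.12. Igf2bp1, Igf2bp2 and Igf2bp3, which stabilise fetal mRNAs, were 2.62-fold, 2.04-fold and 3.83-fold lower. Esrp2, a splicing factor of epithelia, was the member that was higher, from -4.21 to -1.14 (8.37-fold).

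Imprinted genes, many of which control fetal growth, were lower in 11 of 22, within 2-fold in 10 and higher in 1 (median -1.13). Dlk1, a growth regulator expressed from the paternal copy, was at 4.93 and 1.31 (12.3-fold), and Meg3, its maternal neighbour, at 2.36 and 0.33 (4.08-fold). Magel2 was at -2.16 and -5.36 (9.17-fold) and Peg3 at 1.37 and -0.54 (3.76-fold). Igf2, the main fetal growth factor, was at 2.28 and 0.51 (3.40-fold), but H19, from the same domain, differed by -0.66 and was at 6.80 at P0. Phlda2, a brake on placental growth, was the member that was higher, from -4.69 to -2.95 (3.34-fold).

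Of the mesenchyme that builds nephrons, 7 of 15 genes were lower, 8 within 2-fold and 0 higher (median -0.82). Cited1 and Eya1, of the self-renewing cap, were level at 4.48 and 4.49 and at 4.57 and 4.55. The progenitor marker Six2 was lower, as were Sall1, Meox1 and Uncx, with differences of -1.23, -1.27, -1.58 and -1.09. Osr1, of the early intermediate mesoderm, was at 0.66 and -2.35 (8.09-fold), and Meox2 at 2.01 and -0.98 (7.97-fold). The last is a homeobox factor of mesoderm at large. In the list of the forming nephron, 9 of 19 were higher, 9 within 2-fold and 1 lower (median 0.98). Irx1 and Irx2, which pattern the middle segments, were at -2.17 and 2.97 (35.4-fold) and at -5.46 and -0.53 (30.4-fold, with another probe at a difference of 1.53), whereas Lhx1 and Fgf8, of the renal vesicle, were at -0.51 and -0.56 and at -0.37 and -0.60.

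Stromal regulators were lower in 12 of 25, within 2-fold in 10 and higher in 3 (median -0.75). Tbx18 and Ebf2 were at -0.80 and -1.35 at E13.5 and not well above background at P0 (at least 37.2-fold and at least 25.4-fold). Tbx18 marks mesenchyme that surrounds the ureter. Ebf3, Foxf1 and Foxd1, the last a marker of cortical stroma, were at 2.31 and -2.44, at 0.21 and -4.09, and at 2.69 and -0.42. Other stromal genes were level or higher: Tcf21 differed by 0.37, Smoc2 by -0.22, and Penk, which encodes enkephalin and marks medullary stroma, was at 2.32 and 6.11 (13.8-fold). Members of the list therefore lay on both sides of the bulk of genes.

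In the lists of 5 signalling pathways single members were far apart, while the list medians lay between -0.27 and 0.09, near the bulk of genes. Of all genes compared, 6.24% were at least 4-fold higher and 1.83% lower. The matching counts were 1 and 2 of 20 for retinoic acid, 0 and 2 of 32 for Wnt, and 3 and 3 of 31 for BMP and TGF-beta. For growth factors they were 3 and 2 of 37, and for hedgehog and Notch 1 and 0 of 26. Under the alternatives other than the failed normexp correction, the medians of the retinoic acid and growth factor lists crossed 0. Those of the Wnt list (0.09 to 0.34), the BMP and TGF-beta list (-0.36 to -0.0077) and the hedgehog and Notch list (-0.27 to -0.0042) kept their sign. In the retinoic acid list 13 of 20 genes were within 2-fold, and the large gaps belonged to binding proteins, Crabp1 at 2.94 and -2.06 (31.9-fold) and Crabp2 at 5.33 and 2.94 (5.23-fold), while Rarb, a target of the pathway, differed by -0.34. In the Wnt list 20 of 32 were within 2-fold, with Sfrp4, a secreted inhibitor, 6.01-fold lower and the target Axin2 at a difference of -0.60. In the BMP and TGF-beta list 15 of 31 were within 2-fold, and the ligand gene Inhba went from -2.43 to -5.59 (8.88-fold lower). Among growth factors 22 of 37 were within 2-fold, with the mesenchymal ligands Fgf10 and Fgf18 4.07-fold and 4.68-fold lower and the receptor Erbb4 14.6-fold higher. In the hedgehog and Notch list 18 of 26 were within 2-fold, and Ihh, a ligand, was 125-fold higher, from -5.27 to 1.70. The hedgehog targets Gli1 and Ptch1 differed by -0.30 and -0.46.

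Hox genes, which set position along the body axis, were within 2-fold in 24 of 35, lower in 9 and higher in 2 (median -0.37). The end of the Hoxd cluster stood apart, with Hoxd12 at 1.05 and -1.91 (7.77-fold lower) and Hoxd13 at -3.71 at E13.5 only. Its cluster neighbours Hoxd8 and Hoxd9 were the members that were higher, by 2.20-fold and 2.15-fold, and Hoxd11, one of the paralogs that specify kidney, was 2.15-fold lower. Hoxa11, of the same paralog group, was at 2.39 and 1.36.

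Markers of tissues around the kidney differed as well. Skeletal muscle genes were lower in 16 of 26, within 2-fold in 9 and higher in 1 (median -1.76), with 25 of 30 on the array well above background at E13.5 and 22 at P0, and a summed level of 20.0 and 5.29. Actc1, fetal muscle actin, was at 2.76 and -3.34 (68.6-fold), Myh3, embryonic myosin, at 0.19 and -4.47 (25.3-fold), and Myog, which drives myotube formation, at -1.86 at E13.5 and not well above background at P0. The satellite cell gene Pax7 and the muscle factors Myf5 and Myf6 were not well above background on either array. The part of body wall muscle in the E13.5 sample was not tested.

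Neuronal genes were lower in 10 of 26, within 2-fold in 15 and higher in 1 (median -0.79), with a summed level of 12.1 and 7.49. Stmn2, of growing axons, was at -0.05 and -2.35 (4.93-fold), Gap43 at 0.81 and -1.08 (3.69-fold) and Syt1, of synaptic vesicles, at -2.51 and -5.18 (6.34-fold). Th, which makes catecholamines in sympathetic and adrenal cells, was level at -1.86 and -1.99. Slc18a1, a vesicular amine carrier of endocrine cells, was higher, from -4.80 to -0.02 (27.6-fold). Of 18 adrenal and steroid genes on the array 14 were well above background at each stage, with a summed level of 24.4 and 69.6, and of 15 compared 2 were higher, 10 within 2-fold and 3 lower (median 0.15). The adrenal enzymes Cyp11a1 and Cyp11b1 were not well above background on either array, while Star and Cyp21a1 differed by 0.23 and 0.05, and the higher members were Hsd3b3 and Hsd3b4, from a family of near-identical copies. Hsd3b4, at -4.48 and 5.36, makes up most of the summed level at P0, and it was at 6.55 in the 8-week kidney. Of 18 fat genes 11 were well above background at each stage, with a summed level of 4.32 and 42.7, and of 12 compared 3 were higher, 6 within 2-fold and 3 lower (median 0.05). Adipoq, Cfd and Ucp1 were not well above background on either array, while Fabp4, which endothelium also makes, was 20.6-fold higher and Gpd1, an enzyme of glycerol metabolism, 49.2-fold higher. Mesothelial and capsule genes were higher in 7 of 12 and within 2-fold in 5 (median 2.56), with Msln, mesothelin, at -3.94 and -0.92 (8.08-fold) and Gpm6a at -4.94 and -1.06 (14.8-fold). The higher members include Upk1b, Upk3b, Krt19 and Ly6a, genes given above under urothelium, simple epithelium and endothelium. Wt1 and Rspo1 differed by -0.30 and -0.79, and Lrrn4 and Bnc1 were not well above background on either array. Of liver plasma proteins 7 of 12 were higher, 4 within 2-fold and 1 lower (median 1.77, or 0.35 with no filter on dim probes): Afp was at -2.14 and 3.55 (51.7-fold), but Alb, albumin, was at -4.75 at E13.5 and not well above background at P0. Contributions of these cells to the differences were not tested.

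The 8-week kidney shows where the genes far apart between embryo and birth stood later, as a description of 1 further array on the same slide as P0. The Y-linked Eif2s3y and Ddx3y, not well above background at P0, were at 1.81 and 0.22 at 8 weeks. Sex and age therefore cannot be told apart between these 2 arrays. Of the 1096 genes at least 4-fold higher at P0, 995 (90.8%) were well above background at 8 weeks, against 86.3% of all genes compared. Of the 322 that were lower, 120 (37.3%) were. A level of 0 stands for an intensity of 1170.2 at 8 weeks against 1720.1 at P0, so equal intensities give a higher level at 8 weeks. The counts that follow cover named genes only, and the share over all genes compared is not given beside them. Of the 45 genes named for the largest differences upward, 39 were at a still higher level at 8 weeks, 34 of them by more than 2-fold. Examples were Miox at -4.33, 4.93 and 8.79 in the embryo, newborn and adult, and Kap, a kidney protein under androgen control, at 4.33 and 8.65 in the newborn and adult. A few had their highest level at P0: Aqp2 was at -3.44, 4.12 and 2.96, and Ihh at -5.27, 1.70 and 0.78. Hdc and Serpina6, which encodes the carrier of corticosteroids in blood, were at 4.07 and 3.03 at P0 and not well above background at 8 weeks, with E13.5 levels of -4.01 and -4.78. The probes of Serpina6 gave differences of 6.50 and 7.81. These were the genes among the 30 largest measured positive differences that were not seen in the adult.

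On the lower side, 18 of the 30 largest measured negative differences were not well above background at 8 weeks, Hmga2 for instance at 4.15 and 0.47 in embryo and newborn. Of the 45 genes named for the largest differences downward, 16 were well above background at 8 weeks. Of these, 9 were at a higher level than at P0, the Y-linked Eif2s3y and Ddx3y among them, and 8 by more than 2-fold. Bcat1, which breaks down branched amino acids, and Car3, a carbonic anhydrase of muscle and fat, were examples, at -1.36, -5.00 and 2.24 and at -0.59, -4.33 and -1.12, so that the newborn was the lowest of the 3 kidneys. Clstn2 and Senp8 were also higher again at 8 weeks, from -4.16 and -4.89 at P0 to -2.54 and -3.19. The probes of Bcat1 gave differences from -3.65 to -1.63. Genes on this side were chosen in part by a low level at P0, and no share over all genes is given for a higher level at 8 weeks.

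**Figure D5:**
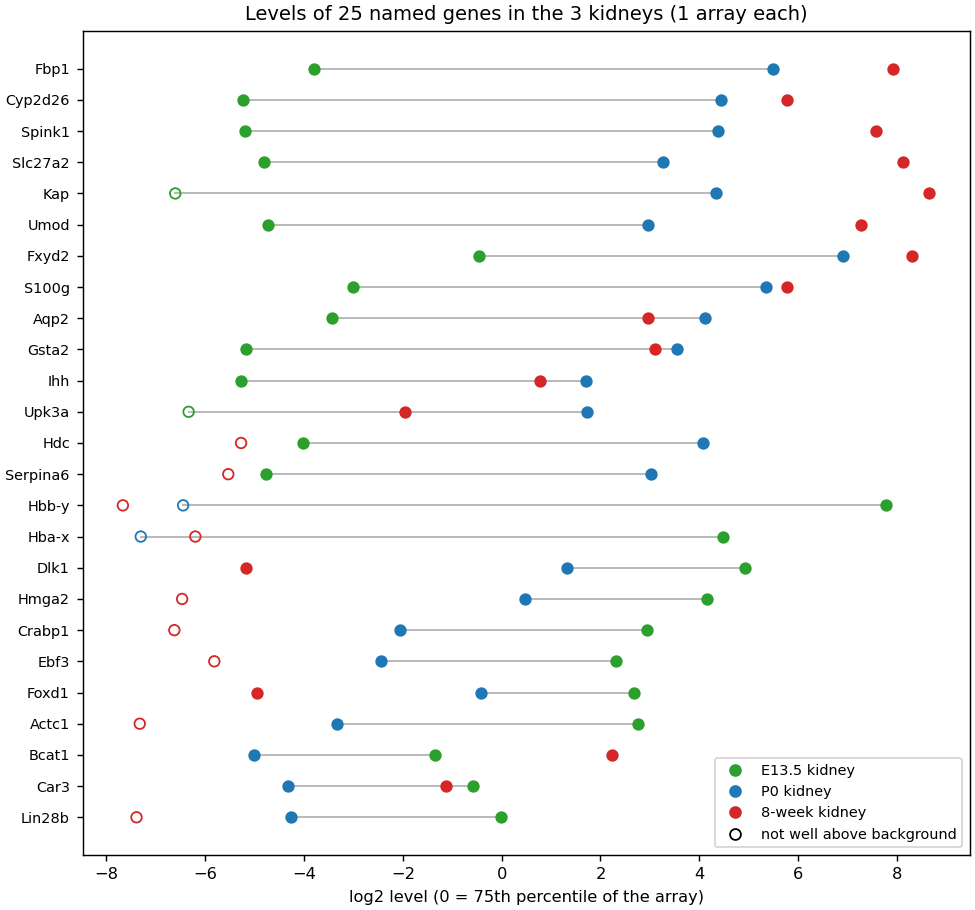
Levels of 25 named genes (log2, 0 = 75th percentile of the array, x axis) in the E13.5 (green), P0 (blue) and 8-week kidney (red), with 1 array each; grey lines join E13.5 and P0, and open circles are levels not well above background. Fbp1, Slc27a2 and Umod climb through all 3 stages, Hdc and Serpina6 are high at P0 only, and Bcat1 and Car3 are lowest at P0.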

How the data were processed

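Per the labels' protocols, RNA was purified with an RNeasy column, labelled with Cy3 and hybridised to one-colour Agilent arrays. The deposited scanner files hold intensity values that Agilent Feature Extraction 10.7.3.1 had corrected for background and spatial trend, per the file headers and the submitters' processing notes. The deposited files also hold other values used here, 0 or 1 per spot, that mark outliers and spots well above background. Each array's log2 intensity was set against its 75th percentile over 43020 gene spots of 44397. Outlier spots (447) were left out and repeated spots averaged, which left 42573 spots and 39414 probes. Of these, 31781 were named by a gene identifier in the authors' deposited table, 2026 by its symbol and 19 by accession, and 5588 stayed unnamed. Each gene was read from its brightest probe, judged by the average of the 5 arrays. On the E13.5 and P0 arrays 63.4% and 65.7% of gene spots were well above background, and no spot was saturated.

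The authors' deposited table holds log2 values centred on each gene's median; its log base and scaling follow from a match to the scanner files (99.6% of values within 0.01 without a percentile shift, 18.2% with one), and it served as an alternative. Its column medians were 0.0465, 0, 0, -0.0767 and 0. The array design is annotated on an older genome build, so no coordinates were taken from it. Promoters were matched by symbol.

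With 1 array per stage no test was made: genes were counted past 4-fold, and list members past 2-fold. The genes named are the 30 largest differences in each direction among genes measured on both arrays, the 15 largest bounds in each direction, members of 62 gene lists, and members of families that share a symbol root. Gene-model names were left out of the first 2 sets, and some items are not reported here. The members and lists were chosen with earlier results of these data known. Calculations used Python 3.11.15, numpy 2.4.6, pandas 2.3.3, statsmodels 0.14.6, matplotlib 3.10.9, R 4.3.3 and limma 3.58.1 (normexp, quantile normalization), and the scripts were tested on simulated data. Alternatives covered background correction, scaling, probe choice, the filter on dim probes and the fold threshold.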

Additional observations from a re-analysis of the deposited data

Results flagged for a closer look

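A signal lay outside the values compared. On the E13.5 array the local background, measured around each spot and not used in the processed intensity as analysed here, reached 49162 at the probe of Kdr that was left out as an outlier. It was between 40985 and 49162 at 5 spots, while the array's median was 26 and the highest values on the other 4 arrays lay between 33 and 65. The 5 spots belong to Socs2, Adamts3, Olfr868, Kdr and an unnamed probe. In all 5 the local background carried an outlier mark, and in Socs2 and Kdr the spot itself did too. In the normexp model of that array the background term was -992.0, whereas the other arrays had values from 20.7 to 27.5, and it came to 22.2 once these 5 backgrounds had been replaced by the array's median.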

How the results depend on the processing

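No paired analysis was possible because each stage has 1 array, and no array could be left out. The normexp correction, which could not be fitted well on the E13.5 array, gave 304 genes at least 4-fold higher and 3180 lower, turned the medians of the neutrophil, mast cell and lymphoid list and of the keratin list to -0.20 and -0.74, and turned 6 of the 258 followed genes at least 2-fold apart: Ace, Cpa3 and Cdkn2c to -0.40, -1.15 and -0.89, and Fos, Phlda2 and Wnt7b to -1.74, -1.32 and -0.42. Fitted with negative control spots it gave 766 and 148, and with the bright local backgrounds replaced, an alternative chosen after seeing the data, 696 and 128. Requiring both arrays to be well above background gave 729 and 210, no filter 1397 and 557, a 2-fold threshold 2442 and 2088, and an 8-fold threshold 545 and 97. The authors' table gave 1400 and 438, of which 1066 and 283 genes were shared with the counts as reported. Genes that were higher made up 77.3% of all genes past 4-fold as reported, 8.73% with the first normexp correction and between 71.5% and 85.7% otherwise, the last with spike-in centring. With the other alternatives 1 of these 258 genes changed sign, Pcdh15 to -0.15 with the mean over probes, as did 19 of 74 genes under 2-fold apart, 14 of them with spike-in centring. The widest ranges of list medians were 1.35 to 5.07 for organic ion transporters, up to 4.94 for amino acid and peptide carriers, 1.21 to 3.73 for calcium and phosphate genes and 1.81 to 4.08 for glucose carriers. The medians of the cytochrome P450, neutrophil, injury and liver lists fell within 2-fold under 1 or more of them, to 0.38, 0.08, 0.64 and 0.35, as did those of the immediate early, birth response and keratin lists, to 0.71, 0.94 and 0.75. The medians of the mitosis, replication, chromatin and imprinted lists, close to the 2-fold line, came within it too, to -0.78, -0.80, -0.76 and -0.88. The cause of these shifts was not tested, and 1 array per stage limits the precision of each.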

Other observations

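Genes of the extracellular matrix outside basement membranes were level as a list (median 0.24). Of 35 compared, 26 were within 2-fold, 5 higher and 4 lower. Over all genes compared 13.9% were at least 2-fold higher and 11.9% lower, shares much like those of this list. Timp3, an inhibitor of matrix proteases, was at 1.71 in the E13.5 kidney and 4.59 in the P0 kidney (7.36-fold higher). Fbln5 and Ltbp4, needed for elastic fibres, were higher by 2.92-fold and 2.92-fold, with Ltbp4 probes at differences from 0.28 to 1.73. Fbn2 and Fbln2, fibrillin and fibulin forms of embryonic tissue, were lower, at 2.66 and 1.04 (3.06-fold) and at 2.71 and 0.95 (3.39-fold). Genes of the primary cilium and the polycystins were within 2-fold in 17 of 21, with Pkd1 and Pkd2 differing by -0.53 and 0.07. Cys1, a cilium protein that is mutated in a mouse model of cystic kidney, was the highest of that list, from -0.78 to 1.39 (4.53-fold).

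Lipid synthesis was level too, with 20 of 23 genes within 2-fold, but the fatty acid binding proteins were not alike. Fabp3 was at -1.06 and 4.21 (38.7-fold higher), and Fabp5 at 6.09 and 5.12, a difference of -0.97. Among chemokines and cytokines, of which 8 of 23 were higher, 13 within 2-fold and 2 lower, Cx3cl1, which draws macrophages, was at -2.43 and 0.44 (7.34-fold higher) and Cxcl13, which draws B cells, at 1.00 and -2.74 (13.4-fold lower). Of 15 genes often used to set the scale of expression data, 13 were within 2-fold. Actb, Gapdh and Rplp0 differed by -0.25, -0.05 and -0.08, B2m by 1.41 and Tbp by -1.48.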
